A study of Homo sapiens with 18 samples.

Results

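The proteasome genes of 3 human myeloid cell lines were followed through treatment with PMA (phorbol 12-myristate 13-acetate), which activates protein kinase C and drives such lines towards macrophage-like cells. Members were all genes whose platform annotation gave a single symbol beginning with PSMA, PSMB, PSMC, PSMD, PSME, PSMF or PSMG. This gave 48 genes, with 619 probe sets of their own, out of 16909 genes with such a probe set. Of these 48 genes, 46 had at least 3 probe sets and were tested among 16241 genes. PSMA6 had 2 probe sets and PSMB6 had 1, so both are given as values. The prefix also caught 2 genes that are not proteasome genes, PSMC3IP, a recombination protein, and PSMAL, a relative of folate hydrolase. That left 46 proteasome genes, 44 of them tested.

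Total RNA was hybridised to Affymetrix human exon arrays in 6 groups of 3 arrays. The groups were HL60, THP-1 and U937 cells given 30 nM PMA for 3 days, and the same lines given DMSO, the solvent of PMA, diluted 1000 fold in the medium for the same time. HL60 is a promyelocytic line, THP-1 and U937 are monocytic lines, and each is an established line without a transgene named in the labels. The labels number the arrays of a group 1 to 3 but do not say whether they are separate cultures, so each p-value reflects the spread among these arrays alone, which may be technical. Values are log2 probe-set signals as deposited, and a gene's value is the mean of its probe sets. In bulk RNA, fewer cells of a kind and less RNA per cell cannot be told apart.

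The proteasome is the protease that degrades ubiquitin-tagged proteins. Its 20S core stacks rings of alpha subunits (PSMA) around rings of beta subunits (PSMB), of which PSMB5, PSMB6 and PSMB7 carry the active sites. The 19S cap unfolds substrates with a ring of ATPases (PSMC) and recognises and deubiquitinates them with non-ATPase subunits (PSMD). Interferon-gamma induces PSMB8, PSMB9 and PSMB10, which take the places of PSMB5, PSMB6 and PSMB7 in newly built cores and form the immunoproteasome. It also induces PSME1 and PSME2, the subunits of the 11S activator. Monocytes and macrophages use the immunoproteasome to cut peptides for MHC class I presentation.

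Of 7 myeloid markers, CD33, SPI1, CEBPA, LYZ and ANPEP had group means between 8.10 and 12.7 in all 6 groups, CSF3R between 6.43 and 8.73, and MPO between 5.05 and 12.6. Of 12 measured markers of other cell types, CD3E, CD3D, CD2, NCAM1, EPCAM and CDH1 stayed below 5.17, the 30th percentile of probe sets, in every group. CD79A, PAX5, KRT18, COL1A1 and COL1A2 lay between 5.24 and 6.64, and GNLY between 4.51 and 6.41. With PMA, CD79A was higher in HL60 (1.00 ± 0.26), GNLY higher in THP-1 (1.90 ± 0.29) and PAX5 lower in U937 (-0.96 ± 0.20) at an adjusted p under 0.05 in limma, and their part in the results was not tested. Array medians ran from 6.18 to 6.95. The U937 arrays numbered 2, PMA and DMSO, share at most 5 exactly tied values with any other array, whereas every other array shares at least 67 with some array. The U937 PMA array numbered 2 had the lowest median and held 83228 distinct values, against at least 214471 in every other array. U937 calls are therefore also given without both arrays numbered 2 where that ends them or moves them.

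The proteasome genes differed more between array numbers than between PMA and DMSO arrays. The median of the 46 tested members was 9.35, 8.39 and 8.45 in HL60 PMA arrays 1, 2 and 3, against 9.44, 8.61 and 8.38 in HL60 DMSO arrays. In THP-1 it was 9.29, 9.29 and 8.45 with PMA, against 9.55, 9.51 and 8.70 with DMSO. In U937 it was 9.66, 8.79 and 9.06 with PMA, against 9.95, 9.87 and 9.04 with DMSO. Arrays with the same number were high or low together in HL60 and THP-1, and in U937 the PMA array numbered 2 left that pattern.

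Among DMSO arrays, the highest was number 1 for 40 of 46 members in HL60, number 2 for 36 in THP-1 and number 1 for 37 in U937. PSMC6, an ATPase of the 19S base, was the most variable member, at 9.94, 7.31 and 6.89 in HL60 PMA arrays and 9.85, 7.56 and 7.36 in HL60 DMSO arrays. Its residual SD within groups was 1.44 log2 units, followed by PSMA2 with 1.30, PSMA3 with 1.22 and PSMD10 with 1.17. The median residual SD was 0.456 over members and 0.278 over all genes. In all, 20 of 46 members (43.5%) were among the 10% of genes with the largest residual SD. With a block for each PMA and DMSO pair of the same number, the medians were 0.268 and 0.213. The numbers meet the rule for pairing given under the processing of the data. Blocked values therefore stand beside the unblocked ones where they change the call of a member's PMA effect or of its difference between lines. The lists of pathway genes have blocked counts only.

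**Figure D1:**
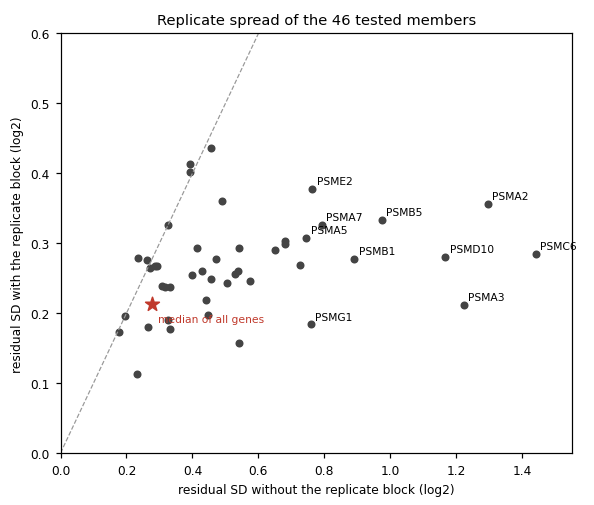
Each point is 1 of the 46 tested members, with its residual SD (log2) without the replicate block on the x axis and with it on the y axis. The dashed line marks equal values and the star the median of all genes, 0.278 and 0.213. PSMC6, PSMA2, PSMA3 and PSMD10 lie farthest right without the block, at 1.44, 1.30, 1.22 and 1.17 log2 units, and far lower with it.

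As deposited and without the replicate block, a few proteasome genes were lower with PMA and none was higher. Calls were made at an adjusted p under 0.05 in limma's moderated test with Benjamini-Hochberg adjustment over all genes. Counting the 44 proteasome genes alone, 1 was lower in HL60, 1 in THP-1 and 6 in U937, since PSMC3IP is called in each line. In HL60, 2 of 46 members were lower and 0 higher, against 10.7% lower and 12.3% higher of all genes. In THP-1, 2 were lower and 0 higher, against 13.2% and 9.38% of all genes. In U937, 7 were lower and 0 higher, against 16.5% and 5.5% of all genes. With the replicate block the counts were 5 lower and 3 higher in HL60 (all genes 16% and 18.4%), 11 and 1 in THP-1 (20.7% and 14.1%) and 12 and 0 in U937 (25.5% and 7.76%). At an unadjusted p under 0.05 without the block, 2 members were higher and 4 lower in HL60, 1 and 5 in THP-1, and 0 and 10 in U937. The shares of all genes at that threshold are not given here. At the adjusted threshold, higher members were a smaller share than among all genes in every line, with and without the block. As deposited, lower members were a smaller share in HL60, and in THP-1 without the block. They were near the share of all genes in U937 and, with the block, in THP-1. With the block, 13 members were lower in HL60 after centring and 13 after quantile normalization. Of all 16241 genes, 3312 and 3331 were lower there, smaller shares than among members. Without the block, centring gave 1 higher and 5 lower members in HL60, and 1 and 4 in THP-1. Quantile normalization gave 2 and 5, and 1 and 5. Of all genes in these lines, 2416 and 2729 were higher after centring, and 2582 and 2617 after quantile normalization. In U937 with the block, 2 members were higher and 12 lower after centring, and 3 and 12 after quantile normalization. Of all genes, 3479 and 3180 were higher there. Without the block, the median SE of a PMA effect was 0.34 over members and 0.23 over all genes. The unblocked shares therefore compare genes of unlike precision.

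The median PMA effect over the 46 members was -0.15 in HL60, -0.27 in THP-1 and -0.30 in U937, beside medians of 0.13, 0.04 and -0.07 over all genes. After centring the arrays, the member medians were -0.20, -0.18 and -0.06 and the medians of all genes 0.08, 0.13 and 0.17. Without both U937 arrays numbered 2, the U937 medians were 0.02 over members and 0.07 over all genes, so the sign of the U937 member median rests on that pair. Of all called genes in U937, 75.0% were lower as deposited and 49.7% after centring. In THP-1 these shares were 58.5% and 48.3%.

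**Figure D2:**
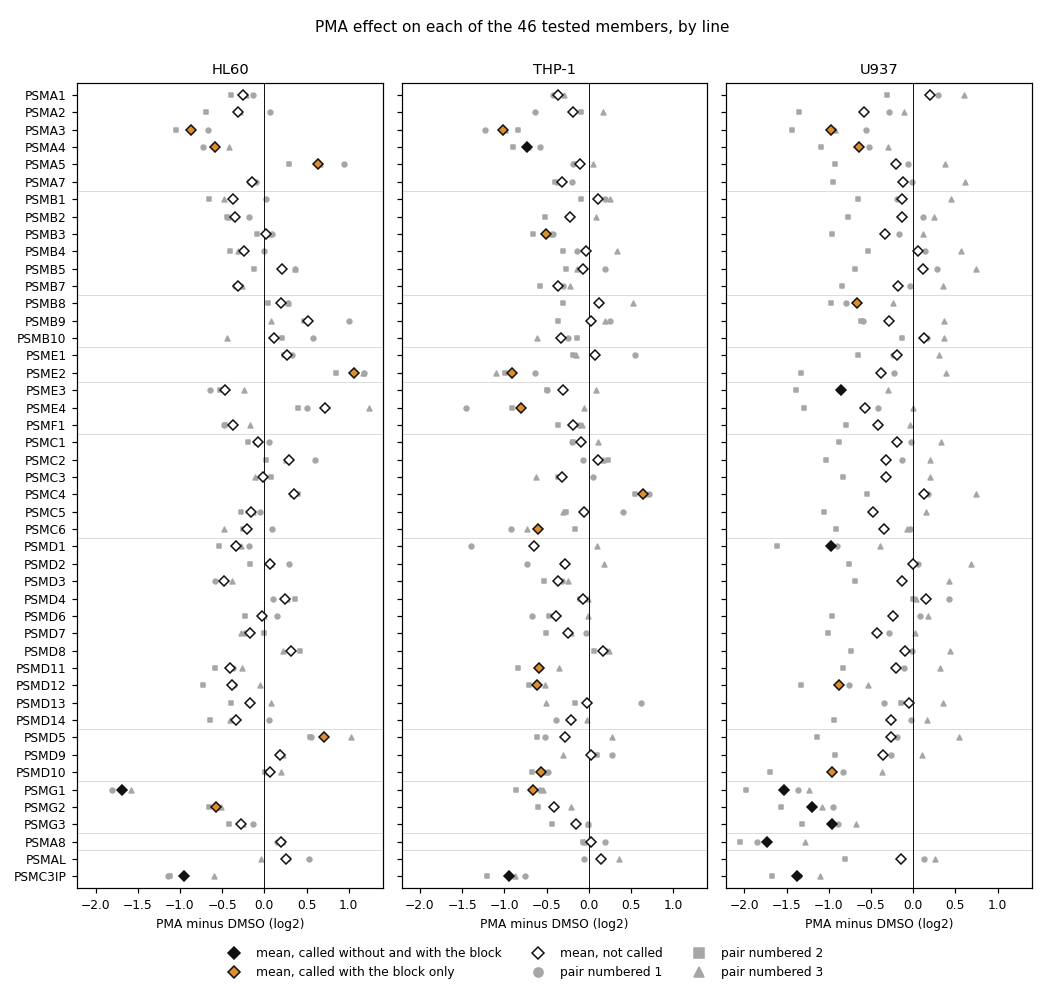
Rows are the 46 tested members in the order of their role (alpha ring, constitutive beta ring, immunoproteasome, 11S activator, other activators and inhibitor, 19S ATPases, 19S non-ATPase subunits, 19S chaperones, 20S chaperones, tissue-restricted and prefix-only genes) and panels are the lines. Diamonds give the mean PMA minus DMSO difference (log2) and grey symbols the 3 pairs of the same number. PSMG1 and PSMC3IP lie left of 0 in every pair of every line, and PSME2 lies right of 0 in all 3 HL60 pairs and left of 0 in all 3 THP-1 pairs.

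The 5 interferon-inducible members, PSMB8, PSMB9, PSMB10, PSME1 and PSME2, had median effects of 0.27 in HL60, 0.03 in THP-1 and -0.28 in U937. The 38 other proteasome members that are not tissue-restricted had -0.19, -0.29 and -0.30. The median of the 5 was thus above that of the 38 in HL60 and THP-1, over genes that share their arrays. In THP-1 the 5 did not lie above as a set, since PSME2 (-0.91) and PSMB10 (-0.33) were below the median of the 38. None of the 5 was called in any line without the block, and at an unadjusted p under 0.05 only PSMB8 in U937 passed. All 5 were above 0 in HL60, 3 in THP-1 and 1 in U937.

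Among the immunoproteasome genes, none of PSMB8, PSMB9 and PSMB10 was called in any line without the block. PSMB8, which replaces PSMB5, stood at 8.59, 7.98 and 8.33 in HL60 PMA arrays 1 to 3, against 8.30, 7.94 and 8.05 in DMSO arrays. In THP-1 it stood at 9.76, 9.36 and 9.30 with PMA, against 9.63, 9.66 and 8.77 with DMSO. The 2 groups overlapped in both lines. The PMA effects were 0.20 ± 0.24 (SE, n = 3 arrays a group; limma adjusted p = 0.615) in HL60 and 0.12 ± 0.24 (limma adjusted p = 0.782) in THP-1.

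In U937, PSMB8 was 8.65, 8.26 and 8.84 with PMA, against 9.44, 9.24 and 9.08 with DMSO, and every PMA array lay below every DMSO array. All 10 of its probe sets were lower. Such a separation below was seen for 10 of 46 members in U937 and for 19.5% of all genes, while 0 members were separated above there, against 5.86% of all genes. The effect was -0.67 ± 0.24 (limma adjusted p = 0.0585), and it was called with the block (limma adjusted p = 0.0105), though not when the pair numbered 1 or 2 was left out. Without pair 2 it was -0.52 ± 0.20 (blocked, limma adjusted p = 0.0802).

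PSMB9, which replaces PSMB6, was 8.26, 7.64 and 7.7 in HL60 PMA arrays and 7.26, 7.17 and 7.62 in HL60 DMSO arrays. Every PMA array lay above every DMSO array, as for 4 of 46 members and 29.7% of all genes in HL60. The effect, 0.52 ± 0.25, had a limma adjusted p of 0.172. In THP-1 the gene stood at 9.39, 8.93 and 8.94 with PMA, against 9.14, 9.29 and 8.74 with DMSO, an effect of 0.03 with a 95% interval from -0.51 to 0.56. In U937 it stood at 7.67, 7.12 and 7.73 with PMA, against 8.26, 7.74 and 7.37 with DMSO, an effect of -0.28 ± 0.25. In both lines the groups overlapped.

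PSMB10, which replaces PSMB7, had effects of 0.12, -0.33 and 0.13 (SE 0.30) in HL60, THP-1 and U937, and its arrays overlapped in each line. It was measured by 3 probe sets of its own, and 7 more are shared with CTRL. The U937 PMA arrays held 8.0, 7.66 and 7.96, against 7.84, 7.79 and 7.60 in DMSO arrays.

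Each catalytic exchange was also read as a difference within an array, which a shift of the whole array leaves as it is. PSMB8 minus PSMB5 was -1.25, 0.14 and 0.21 in HL60 PMA arrays, against -1.17, -0.01 and 0.30 in DMSO arrays, with PMA and DMSO values close to each other in each pair. In U937 it was -1.76, -1.16 and -0.34 with PMA, against -0.68, -0.86 and 0.65 with DMSO, lower with PMA in each pair, while the groups overlapped (exact permutation test, two-sided, p = 0.4). PSMB9 minus PSMB6 was 1.03, 1.07 and 1.52 in THP-1 PMA arrays, against 0.61, 0.95 and 0.79 in DMSO arrays. This was the only separated case among the 9 ratios (exact permutation test, two-sided, p = 0.1, the smallest that 3 against 3 arrays can give). PSMB6 enters it through 1 probe set. The other 8 ratios had exact p-values between 0.2 and 1. The PMA minus DMSO change of PSMB10 minus PSMB7 was 0.43 ± 0.34 in HL60, 0.04 ± 0.22 in THP-1 and 0.31 ± 0.28 in U937 (SE). For PSMB8 minus PSMB5 in THP-1 it was 0.19 ± 0.62, and for PSMB9 minus PSMB6 it was -0.07 ± 0.33 in HL60 and -0.28 ± 0.31 in U937. These tests and SE values compare groups of 3 arrays and ignore the pairs, so the spread between array numbers enters them. In U937, PSMB10 minus PSMB7 was higher with PMA in each pair. It was -3.56, -3.00 and -3.07 with PMA, against -3.76, -3.71 and -3.09 with DMSO.

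**Figure D3:**
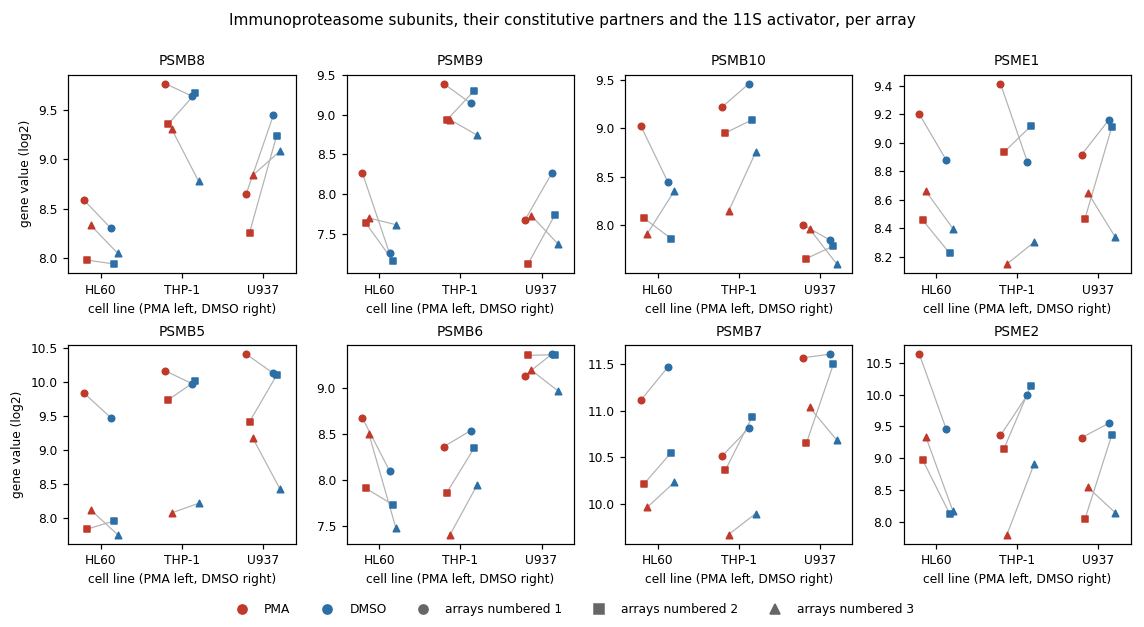
Gene values (log2) per array of the 3 immunoproteasome subunits, their constitutive partners below them, and the 11S activator genes at the right. Within each line PMA (red) is left of DMSO (blue), marker shapes give the array number and grey lines join arrays of the same number. PSME2 lines fall from PMA to DMSO in HL60 and climb in THP-1, and PSMB5 shows array numbers 2 and 3 far below number 1 in HL60.

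PSME2, the beta subunit of the 11S activator, was higher with PMA in every HL60 pair and lower in every THP-1 pair. Its values were 10.63, 8.98 and 9.34 in HL60 PMA arrays, against 9.45, 8.13 and 8.18 in DMSO arrays. In THP-1 they were 9.36, 9.14 and 7.80 with PMA, against 10.00, 10.14 and 8.91 with DMSO. The groups overlapped in both lines, since the array numbered 1 was high in HL60 and the array numbered 3 low in THP-1. All 12 of its probe sets were higher in HL60 and all 12 were lower in THP-1. Probe sets of 1 gene share the same arrays and are not replicates.

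The PSME2 effect was 1.06 ± 0.54 in HL60 (limma adjusted p = 0.186, and 0.00317 with the block) and -0.91 ± 0.54 in THP-1 (limma adjusted p = 0.262, and 0.00904 with the block). In U937 it was 9.32, 8.04 and 8.54 with PMA, against 9.55, 9.37 and 8.15 with DMSO, with no common direction among pairs. The HL60 effect minus the THP-1 effect was 1.98 ± 0.76 (limma adjusted p = 0.145), and 1.98 ± 0.34 with the block (limma adjusted p = 0.00126). The blocked call of this difference was kept in all 9 of its alternatives. No difference of effects between HL60 and THP-1 was called for a member in limma without the block, where 7.78% of all genes were called, and 3 members had an unadjusted p under 0.05. With the block 3 were called, against 15.5% of all genes.

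PSME1, the alpha subunit of the same activator, was 9.20, 8.46 and 8.66 in HL60 PMA arrays and 8.88, 8.23 and 8.40 in DMSO arrays. Its effects were 0.27, 0.07 and -0.19 (SE 0.32) in HL60, THP-1 and U937, none called with or without the block.

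The promoters of these genes are shown because interferon-response elements are known at several of them. The sequences are from RefSeq on GRCh38.p14 and run from 250 bases before to 50 bases after the gene start, on the strand of the gene, and 41 of the 48 members had an entry. Capitals mark matches on either strand to GAAA followed by any 2 bases and GAAA again, the type of the interferon-stimulated response element, and PSMB9, at chr6:32853942-32854241, holds none. PSMB10 is at chr16:67936801-67937100, PSME1 at chr14:24135944-24136243 and PSME2 at chr14:24146561-24146860.
PSMB10: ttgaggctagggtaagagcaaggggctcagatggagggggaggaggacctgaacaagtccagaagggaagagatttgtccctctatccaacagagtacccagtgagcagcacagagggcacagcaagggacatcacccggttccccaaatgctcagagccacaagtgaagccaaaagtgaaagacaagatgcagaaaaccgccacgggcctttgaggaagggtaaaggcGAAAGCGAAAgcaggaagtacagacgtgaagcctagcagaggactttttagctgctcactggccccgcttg
PSME1: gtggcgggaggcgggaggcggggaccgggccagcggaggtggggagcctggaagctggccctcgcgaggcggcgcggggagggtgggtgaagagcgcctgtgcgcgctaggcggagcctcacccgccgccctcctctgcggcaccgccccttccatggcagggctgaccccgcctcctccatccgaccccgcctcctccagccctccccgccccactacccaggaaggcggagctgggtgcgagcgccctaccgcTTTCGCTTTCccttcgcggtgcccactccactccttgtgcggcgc
PSME2: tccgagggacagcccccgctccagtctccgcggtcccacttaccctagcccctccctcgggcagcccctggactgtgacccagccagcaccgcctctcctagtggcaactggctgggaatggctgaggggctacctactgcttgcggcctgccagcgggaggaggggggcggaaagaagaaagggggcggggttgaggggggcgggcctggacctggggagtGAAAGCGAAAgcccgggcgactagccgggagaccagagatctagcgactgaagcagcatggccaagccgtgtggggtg
PSMB9: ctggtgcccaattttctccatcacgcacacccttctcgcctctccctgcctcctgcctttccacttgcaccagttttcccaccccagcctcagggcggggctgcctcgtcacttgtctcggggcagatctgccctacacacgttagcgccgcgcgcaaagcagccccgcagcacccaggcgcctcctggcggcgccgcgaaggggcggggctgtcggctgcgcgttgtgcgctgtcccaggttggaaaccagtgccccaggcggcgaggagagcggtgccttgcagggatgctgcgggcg
The same 10 letters, GAAAGCGAAA, lie at base -21 in PSMB10 and at base -28 in PSME2, counted from the gene start, and on the opposite strand at base 6 in PSME1. These 10 letters were read from the PSMB10 match, so their count among members is set in part by that choice. They were found in 3 of 41 member promoters and in 30 of 27305 promoters of the same length (0.11%). The wider pattern with any 2 bases between was in 5 of 41 member promoters, the other two being PSMA4 and PSMB4, against 3.65% of all promoters. PSMB8 and PSMB9 had no match in this window. Of the 3 genes with these letters, PSME2 was called with the block in HL60 and THP-1, and PSME1 and PSMB10 in no line. TGACNNNGC, the core of the antioxidant response element to which NFE2L1 binds, was in 13 of 41 member promoters (31.7%, against 13.6% of all promoters). The CCAAT box was in 19 (46.3%, against 35.7%), TTCNNNGAA in 5 (12.2%, against 7.88%) and the MYC-type E-box CACGTG in 3 (7.32%, against 7.43%), all searched on both strands.

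In the alpha ring, PSMA3 and PSMA4 were lower in every pair of every line. PSMA4 was 9.86, 9.89 and 9.38 in THP-1 PMA arrays, against 10.44, 10.78 and 10.11 in DMSO arrays, with no overlap, as for 4 of 46 members and 19.8% of all genes. It fell by 0.73 ± 0.25 in THP-1 (limma adjusted p = 0.0468, and 0.00316 with the block). The unblocked call was lost in 6 of 15 alternatives, among them leaving out any of 5 THP-1 arrays. In HL60 it stood at 10.06, 9.75 and 9.5 with PMA, against 10.79, 10.35 and 9.92 with DMSO, and in U937 at 11.16, 10.46 and 11.15 with PMA, against 11.69, 11.56 and 11.44 with DMSO. The HL60 effect, -0.58 ± 0.25, was called with the block alone (limma adjusted p = 0.0134), and lost without pair 1 or 2. The U937 effect, -0.64 ± 0.25, was also called with the block alone (limma adjusted p = 0.00759), and without U937 pair 2 the U937 effect was not called (0.0608).

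PSMA3 held 9.63, 7.37 and 7.21 in HL60 PMA arrays, against 10.29, 8.43 and 8.09 in DMSO arrays. In THP-1 it held 8.73, 9.44 and 6.89 with PMA, against 9.95, 10.28 and 7.88 with DMSO. In U937 it held 9.89, 8.96 and 7.7 with PMA, against 10.45, 10.40 and 8.62 with DMSO. The spread between array numbers exceeded the PMA effect in every line, and the groups overlapped. All 12 probe sets were lower in each line. The effects were -0.86, -1.02 and -0.97 (SE 0.85 without and 0.17 with the block). With the block all 3 were called (limma adjusted p = 0.00121, 0.000374 and 0.000536), and these calls held in all 6 alternatives of each line. Of the other alpha subunits, PSMA5 was 11.20, 9.68 and 9.70 in HL60 PMA arrays, against 10.25, 9.39 and 9.04 in DMSO arrays. It was called higher with the block alone (0.63 ± 0.21, limma adjusted p = 0.0312), and lost when pair 1 or 3 was left out. PSMA6, by its 2 probe sets, had effects of 0.07 in HL60 and -0.06 in THP-1.

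No constitutive beta subunit was called in any line in limma without the block, nor had one an unadjusted p under 0.05. The 6 tested members had median effects of -0.28 in HL60, -0.15 in THP-1 and -0.14 in U937. With the block, PSMB3 was lower in THP-1 alone (-0.51), a call lost when any 1 of the 3 THP-1 pairs was left out. PSMB5 was 9.84, 7.84 and 8.12 in HL60 PMA arrays, against 9.47, 7.96 and 7.75 in DMSO arrays. Its array numbered 1 was more than 1.5 log2 units above the other two in both groups. PSMB7 was 11.11, 10.22 and 9.97 in HL60 PMA arrays, against 11.46, 10.55 and 10.24 in DMSO arrays, lower in every pair but not called. PSMB6 was 8.67, 7.91 and 8.50 in HL60 PMA arrays, against 8.10, 7.74 and 7.48 in DMSO arrays.

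The 3 tested 20S assembly chaperones had median effects of -0.57 in HL60, -0.41 in THP-1 and -1.20 in U937. Of the 3, 1 was called in HL60, 0 in THP-1 and 3 in U937, and with the block 2, 1 and 3, all lower. Of all genes, 10.7%, 13.2% and 16.5% were called lower in these lines, and 16%, 20.7% and 25.5% with the block. PSMG1 and PSMG2 form a heterodimer that holds alpha subunits while the ring closes, and PSMG3 works in the second chaperone pair. PSMG1 was 7.74, 6.63 and 6.40 in HL60 PMA arrays, against 9.54, 8.33 and 7.98 in DMSO arrays. In U937 it was 8.84, 8.18 and 7.76 with PMA, against 10.20, 10.16 and 8.99 with DMSO. In both lines every PMA array lay below every DMSO array, as for 6 members in HL60 and 16.4% of all genes there. In THP-1 it was 8.44, 8.37 and 7.0 with PMA, against 9.01, 9.23 and 7.54 with DMSO, lower in every pair with overlapping groups.

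PSMG1 fell by 1.69 ± 0.53 log2 units in HL60 (limma adjusted p = 0.0272) and by 1.53 ± 0.53 in U937 (limma adjusted p = 0.0491), corresponding to 3.23-fold and 2.88-fold lower values. The HL60 call was lost without DMSO array 1, PMA array 2 or PMA array 3 (limma adjusted p up to 0.155), and the U937 call without DMSO array 1 or 2 or PMA array 2 or 3 (limma adjusted p up to 0.179), without both arrays numbered 2 (-1.30, limma adjusted p = 0.270) and after centring or quantile normalization. With the block the limma adjusted p was 1.67e-06 in HL60, 0.00589 in THP-1 and 7.46e-06 in U937. The THP-1 effect was -0.66 ± 0.16. Its blocked call was lost without pair 2 (0.0752), whereas those of HL60 and U937 held in all 6 alternatives. The HL60 effect was below the THP-1 effect by 1.03 ± 0.23 with the block (limma adjusted p = 0.00713, without it 0.610).

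PSMG2 was 8.14, 7.36 and 7.20 in U937 PMA arrays, against 9.09, 8.92 and 8.29 in DMSO arrays. PSMG3 was 7.99, 7.54 and 7.69 in U937 PMA arrays, against 8.88, 8.86 and 8.36 in DMSO arrays. In neither gene did the groups overlap. PSMG2 fell by 1.20 ± 0.39 (limma adjusted p = 0.0341) and PSMG3 by 0.96 ± 0.26 (limma adjusted p = 0.0113) in U937. The PSMG2 call was lost after centring or quantile normalization. Leaving out 1 array ended it for DMSO array 1 or 2 or PMA array 2 or 3 (limma adjusted p up to 0.138), and ended the PSMG3 call for DMSO array 1 (limma adjusted p = 0.0557). Without both U937 arrays numbered 2, the unblocked effects were -1.02 (limma adjusted p = 0.225) and -0.78 (limma adjusted p = 0.124). With the block and without that pair both were called (0.000314 and 0.00302). In HL60, PSMG2 was 8.38, 7.65 and 7.53 with PMA, against 8.93, 8.30 and 8.04 with DMSO, and was called lower with the block alone (-0.57 ± 0.15 with the block, limma adjusted p = 0.0101, and lost without pair 1 or 2). It was not called in THP-1 (-0.41), and PSMG3 was called neither in HL60 (-0.27) nor in THP-1 (-0.15). PSMG4 was not analysed here.

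**Figure D4:**
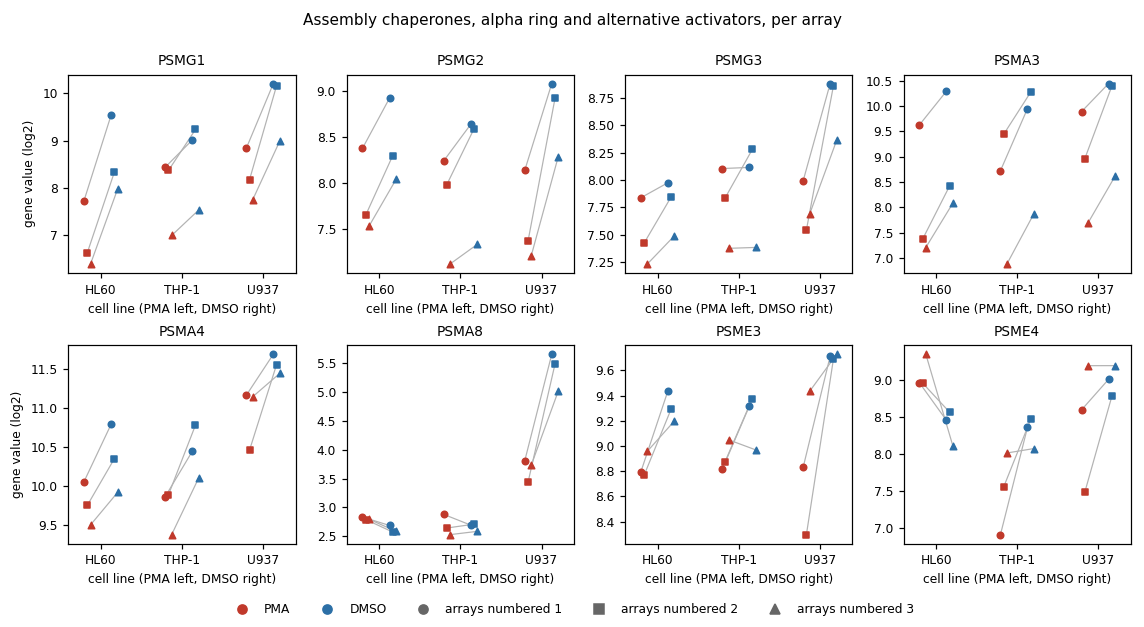
Gene values (log2) per array of the 3 tested 20S assembly chaperones, the alpha subunits PSMA3 and PSMA4, the testis-type alpha subunit PSMA8 and the activators PSME3 and PSME4. PMA (red) is left of DMSO (blue) within each line, shapes give the array number and grey lines join arrays of the same number. PSMG1 lines climb from PMA to DMSO in all 9 pairs, PSMA8 is near 5 in U937 DMSO arrays alone, and the PSME4 lines slope one way in HL60 and the other in THP-1.

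Among the other activators, PSME3, the nuclear proteasome activator, was 8.83, 8.30 and 9.43 in U937 PMA arrays, against 9.71, 9.69 and 9.73 in DMSO arrays. It fell by 0.86 ± 0.22 (limma adjusted p = 0.00763, and 0.00354 with the block), and by 0.59 without both arrays numbered 2 (limma adjusted p = 0.0494). In HL60 it was 8.80, 8.77 and 8.96 with PMA, against 9.44, 9.29 and 9.20 with DMSO, separated but not called (-0.47 ± 0.22, limma adjusted p = 0.145). In THP-1 it was -0.31 ± 0.22.

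PSME4, the large activator PA200, was likewise higher with PMA in HL60 and lower in THP-1 in every pair. It was 8.97, 8.97 and 9.36 in HL60 PMA arrays, against 8.46, 8.57 and 8.12 in DMSO arrays, all PMA arrays above all DMSO arrays. In THP-1 it was 6.91, 7.56 and 8.02 with PMA, against 8.37, 8.47 and 8.08 with DMSO, all PMA arrays below. All 53 probe sets were higher in HL60, all 53 were lower in THP-1 and 52 were lower in U937. The effects were 0.71 ± 0.34 in HL60 (limma adjusted p = 0.154, and 0.0548 with the block) and -0.81 ± 0.34 in THP-1 (limma adjusted p = 0.10, and 0.0313 with the block). The THP-1 pairs differed by -1.45, -0.91 and -0.06, so the size rests on pairs 1 and 2, and the blocked call was lost without either. The HL60 effect minus the THP-1 effect was 1.52 ± 0.38 with the block (limma adjusted p = 0.0140, without it 0.0603), kept in 6 of 9 alternatives. In U937 PSME4 was 8.60, 7.49 and 9.20 with PMA, against 9.02, 8.79 and 9.20 with DMSO. PSMF1, an inhibitor of the core, had effects of -0.37, -0.19 and -0.41 in HL60, THP-1 and U937, none called.

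The 19S ATPases had median effects of -0.04, -0.08 and -0.33 in HL60, THP-1 and U937. None of the 6 was called in limma without the block, and at an unadjusted p under 0.05 only PSMC4 in THP-1 passed. With it, PSMC4 was higher in THP-1, at 9.94, 9.66 and 9.42 with PMA, against 9.22, 9.11 and 8.75 with DMSO, without overlap, the only member above in THP-1, where 23.2% of all genes were. Its effect was 0.64 ± 0.23 (limma adjusted p = 0.0546, and 0.0189 with the block), and leaving out any 1 THP-1 pair ended the blocked call. PSMC6 was lower in THP-1 with the block (-0.61), a call lost without pair 1 or 3.

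Of the 11 non-ATPase subunits of the 19S cap, 1 was called without the block. PSMD1, the scaffold that docks ubiquitin receptors, was 8.93, 8.08 and 9.05 in U937 PMA arrays, against 9.83, 9.70 and 9.44 in DMSO arrays, with no overlap. It fell by 0.97 ± 0.30 (limma adjusted p = 0.0242). The call was lost without DMSO array 1 or 2 or PMA array 2 (limma adjusted p up to 0.114), and without both arrays numbered 2 the effect was -0.65 (limma adjusted p = 0.224, and 0.105 with the block). PSMD12, a lid subunit, was 7.87, 7.23 and 7.58 in U937 PMA arrays, against 8.64, 8.56 and 8.12 in DMSO arrays. It was called lower with the block in U937 (-0.88 ± 0.18, limma adjusted p = 0.00127, and 0.0131 without pair 2) and in THP-1 (-0.61 ± 0.18, limma adjusted p = 0.0147). PSMD11, also of the lid, was lower in THP-1 with the block (-0.59). The PSMD12 and PSMD11 calls in THP-1 were lost without pair 1 or 2.

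Among the 19S assembly chaperones, PSMD10, known as gankyrin, was 8.97, 7.65 and 7.30 in U937 PMA arrays, against 9.80, 9.35 and 7.67 in DMSO arrays. The effect of -0.97 was called with the block (SE 0.20, limma adjusted p = 0.00161, and 0.0114 without pair 2). In THP-1 the effect was -0.56 (limma adjusted p = 0.0425 with the block), a call lost without any 1 pair, and in HL60 it was 0.07. PSMD5 was 7.76, 7.42 and 7.79 in HL60 PMA arrays, against 7.21, 6.88 and 6.77 in DMSO arrays, without overlap, and was called higher with the block (0.71 ± 0.26, limma adjusted p = 0.0484), a call lost without any 1 pair.

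PSMA8, the alpha subunit otherwise known from testis, was higher in U937 than in the other lines. It stood at 3.81, 3.43 and 3.73 in U937 PMA arrays, against 5.66, 5.49 and 5.02 in DMSO arrays, while all 12 HL60 and THP-1 arrays lay between 2.53 and 2.88. All 11 of its probe sets were lower with PMA in U937. It fell by 1.73 ± 0.17 log2 units, or 3.32-fold (limma adjusted p = 1.59e-06), and by 1.57 without both arrays numbered 2 (limma adjusted p = 5.31e-05). The U937 PMA arrays and all HL60 and THP-1 arrays lie below 5.17, the 30th percentile of probe sets, so the fold and the line differences of PSMA8 may be lower bounds. The U937 effect differed from that of HL60 by 1.92 ± 0.24 (HL60 minus U937, limma adjusted p = 5.66e-05) and from that of THP-1 by 1.75 ± 0.24 (THP-1 minus U937, limma adjusted p = 0.000236). It was the only member whose effect differed between lines without the block, where 7.73% and 4.77% of all genes did. With the block 5 members differed between HL60 and U937 (16.4% of all genes) and 4 between THP-1 and U937 (10.1%).

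PSMC3IP, the partner of the meiotic recombinase and not a subunit, fell in all 3 lines. It was 6.31, 6.10 and 6.42 in HL60 PMA arrays, against 7.45, 7.22 and 7.02 in DMSO arrays. It fell by 0.95 ± 0.18 in HL60 (limma adjusted p = 0.000680), by 0.95 ± 0.18 in THP-1 (limma adjusted p = 0.000898) and by 1.38 ± 0.18 in U937 (limma adjusted p = 2.79e-05), and these calls were kept in all 15 alternatives. PSMAL lay between 1.97 and 3.00 in every array. With the block, 4 members were lower in all 3 lines, PSMA3, PSMA4, PSMG1 and PSMC3IP, against 10.1% of all genes, and 0 were higher in all 3, against 4.05%. PMA effects of 26 members were called in no line with or without the block. They include 8 of the 11 non-ATPase subunits, 5 constitutive beta subunits, 4 ATPases and PSMA1, PSMA2 and PSMA7, and their effects ran from -0.59 (PSMA2, U937) to 0.52 (PSMB9, HL60).

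The lines also differed in DMSO arrays. Arrays of different lines shared at most 7 exactly tied values, against at least 39 within a line outside the U937 arrays numbered 2, and whether the lines were normalized together is not given in the sources used here. In DMSO arrays HL60 was lower than THP-1 in PSMB9 (7.26, 7.17 and 7.62 in HL60, against 9.14, 9.29 and 8.74 in THP-1) and in PSMB8 (8.30, 7.94 and 8.05 in HL60, against 9.63, 9.66 and 8.77 in THP-1). The differences were -1.71 ± 0.25 (limma adjusted p = 8.80e-05) and -1.26 ± 0.24 (limma adjusted p = 0.00113), and both calls were kept in all 15 alternatives. PSMF1 was higher in HL60 than in THP-1 (0.85 ± 0.22), a call lost without HL60 DMSO array 2. These were the 3 called members, 1 higher and 2 lower, against 5.78% and 10.8% of all genes.

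In DMSO arrays THP-1 was higher than U937 in 2 of 46 members, PSMB9 and PSMB10, and lower in 8. PSMB9 was 9.14, 9.29 and 8.74 in THP-1 DMSO arrays, against 8.26, 7.74 and 7.37 in U937 DMSO arrays, a difference of 1.27 ± 0.25 (limma adjusted p = 0.00113). PSMB10 was 9.46, 9.09 and 8.75 in THP-1, against 7.84, 7.79 and 7.60 in U937, a difference of 1.36 ± 0.30 (limma adjusted p = 0.00241), and with the probe sets shared with CTRL added it was 1.42 ± 0.69, no longer called (limma adjusted p = 0.137). Lower in THP-1 were 8 members, led by PSMA8 (-2.72), PSMB2 (-1.52), PSMF1 (-1.45) and PSMD5 (-1.27). Of all genes, 7.55% were higher and 18.7% lower. The count of lower members is thus near the share of all genes, and that of higher members below it. Of the 10 calls, 9 were kept without both U937 arrays numbered 2 and that of PSMG3 was lost.

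HL60 was lower than U937 in 15 of 46 members and higher in 0, against 19% and 3.87% of all genes. The lower ones included PSMA8 (-2.77), PSMD5 (-1.80), PSMC4 (-1.28) and PSMB8 (-1.15). After centring or quantile normalization the count was 9, against 12.9% and 13.1% of all genes. Without both U937 arrays numbered 2, 10 were lower, against 25.1% of all genes, and PSMB4, PSMD2, PSMD3, PSMD6, PSMD8 and PSMD14 lost their calls. The member median of this difference was -0.89, beside -0.23 over all genes. Array medians were higher in U937 DMSO arrays, between 6.72 and 6.95, than in HL60 DMSO arrays, between 6.43 and 6.56, and their part in this count beyond the centred value was not tested.

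The route from interferon to the immunoproteasome was read from 10 measured genes. Of these, 4 were higher and 1 lower in HL60, 4 and 1 in THP-1, and 4 and 0 in U937, against 12.3% higher and 10.7% lower of all genes in HL60, 9.38% and 13.2% in THP-1, and 5.5% and 16.5% in U937. Without both U937 arrays numbered 2, 5 were higher and 0 lower in U937, against 8.1% and 10.2% of all genes. The SOCS1 call there was lost (limma adjusted p = 0.0956). IRF2 (0.73 ± 0.22, limma adjusted p = 0.0334) and JAK1 (1.00 ± 0.29, limma adjusted p = 0.0306) gained calls there, both higher. With the block and all arrays, 6 were higher and 1 lower in HL60, 5 and 2 in THP-1, and 5 and 1 in U937. The blocked shares of all genes were 18.4% and 16%, 14.1% and 20.7%, and 7.76% and 25.5%. Calls of single genes here are without the block. IFNGR2, a subunit of the interferon-gamma receptor, rose in all 3 lines, by 0.87 ± 0.26 in HL60 (limma adjusted p = 0.0194), 1.07 ± 0.26 in THP-1 (limma adjusted p = 0.00531) and 1.5 ± 0.26 in U937 (limma adjusted p = 0.000372). IRF2, a repressor at interferon-response elements, rose by 1.37 ± 0.25 in HL60 and 1.5 ± 0.25 in THP-1. In U937 its effect was 0.40 ± 0.25 with all arrays, not called. JAK2, a receptor kinase, rose by 0.92 ± 0.25 in HL60 and fell by 0.81 ± 0.25 in THP-1, while SOCS1, which inhibits it, rose by 0.89 ± 0.19 in HL60 and 0.56 ± 0.19 in U937. IFNGR1, the ligand-binding receptor subunit, rose by 2.45 ± 0.50 in THP-1. IRF9, part of the interferon-stimulated factor, rose by 0.60 ± 0.18 in THP-1 and 1.31 ± 0.18 in U937, and its partner STAT2 by 0.92 ± 0.25 in U937. IRF1, the activator at the same elements, was not called, with 0.52, 0.40 and 0.03. NLRC5, the transactivator of MHC class I genes, averaged 6.67 ± 0.38 in HL60 PMA arrays and 7.95 ± 0.41 in HL60 DMSO arrays (SD, n = 3 each) and fell by 1.29 ± 0.24 (limma adjusted p = 0.000609).

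Of 11 measured genes of MHC class I presentation, 3 were higher and 2 lower in HL60, 3 and 0 in THP-1, and 3 and 1 in U937, beside the same shares of all genes (12.3% and 10.7%, 9.38% and 13.2%, 5.5% and 16.5%). In U937, 4 were higher and 1 lower without both arrays numbered 2, against 8.1% and 10.2% of all genes. HLA-F gained its call there (0.64 ± 0.17, limma adjusted p = 0.0170). With the block and all arrays, 4 were higher and 2 lower in HL60, 4 and 0 in THP-1, and 4 and 1 in U937. The blocked shares of all genes were 18.4% and 16%, 14.1% and 20.7%, and 7.76% and 25.5%. Calls of single genes here are without the block. HLA-E rose in all 3 lines, by 0.76, 1.37 and 1.13, and so did TAPBPL, a peptide editor, by 1.78, 0.62 and 0.73. In HL60, ERAP2, a peptide-trimming enzyme, rose by 1.14 ± 0.27, and the chaperones CALR and CANX fell by 0.74 ± 0.18 and 0.65 ± 0.18. HLA-F rose by 0.73 ± 0.19 in THP-1 and TAPBP, tapasin, by 0.76 ± 0.26 in U937. TAP1, the peptide transporter subunit whose gene lies next to PSMB9 in RefSeq, was not called (0.36, 0.19 and 0.12). TAP2, next to PSMB8, fell by 0.76 ± 0.19 in U937 (limma adjusted p = 0.00792).

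Of 13 measured genes whose products work with the proteasome, 0 were called in HL60 without the block (2 at an unadjusted p under 0.05). In the same fit, 2 were lower in THP-1 and 2 were lower in U937. Of all genes, 13.2% and 16.5% were lower there, so these shares of the list are near the background. In U937, none of the 13 was called lower without both arrays numbered 2 (UCHL5 -1.33, limma adjusted p = 0.124, and PAAF1 -0.98, limma adjusted p = 0.192). NPLOC4 was then called higher (0.60 ± 0.19, limma adjusted p = 0.0465), where 8.1% of all genes were higher. With the block and all arrays, 1 was higher and 2 were lower in HL60, and 3 were lower in each of THP-1 and U937. Of all genes, 18.4% were higher and 16% lower in HL60 with the block, and 20.7% and 25.5% lower in THP-1 and U937. Calls of single genes here are without the block. UCHL5, a deubiquitinase of the 19S cap, averaged 7.59 ± 0.58 in THP-1 PMA arrays and 8.79 ± 0.82 in DMSO arrays (SD, n = 3 each), a fall of 1.20 ± 0.42. In U937 it fell by 1.64 ± 0.42. USP14, the other cap deubiquitinase, fell in THP-1 by 0.77 ± 0.22 and PAAF1 in U937 by 1.02 ± 0.35. POMP, which matures the core together with the PSMG chaperones, had effects of 0.30, -0.14 and -0.15 (SE 0.61) and was not called. Of 8 regulators of proteasome genes, among them NFE2L1 and NFE2L2, 0 were called in any line in limma without the block. At an unadjusted p under 0.05, 1 was lower in HL60, 1 was higher and 1 lower in THP-1, and 0 passed in U937. With the block, 0 were higher and 1 lower in HL60, 1 and 2 in THP-1, and 0 and 0 in U937. The blocked shares of all genes were 18.4% and 16%, 14.1% and 20.7%, and 7.76% and 25.5%.

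The genes whose 6 group means followed each immunoproteasome gene most closely are a description with no test. They were RCN1, PRKCZ and TTC13 for PSMB8, PCDHB12, RWDD2A and GGACT for PSMB9, and DSC2, PLD4 and CLCN4 for PSMB10. Pearson's r over 6 group means was between 0.986 and 0.993, and the points share the same arrays and their scaling.

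Of 573 probe sets in 43 member genes, 1 was called in HL60, 0 in THP-1 and 2 in U937, against 2.79%, 1.5% and 1.01% of all probe sets tested with limma's diffSplice. With an unadjusted p under 0.05 and the same size there were 6, 3 and 7, and the splicing index called 3, 1 and 2. This test treats the probe sets of a gene as independent. A PSMA1 probe set averaged 5.05 ± 0.31 in U937 PMA arrays and 3.03 ± 0.45 in DMSO arrays (SD, n = 3 each), and so rose by 1.99 log2 units more than the rest of its gene (diffSplice adjusted p = 0.0270). Both levels lie below 5.17. The other 2 were PSMC3IP probe sets, 1.48 in HL60 and 1.63 in U937 above the change of the rest of that gene.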

How the data were processed

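Gene and exon levels of 18 arrays were measured. Per the submitters' processing notes, the authors used Affymetrix Expression Console (version not stated), and the deposited values are probe-set values on the log2 scale. The background correction, normalization and genome build are not given in the sources used. Arrays give no read depth, and their number limits the precision.

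The platform annotation named a single gene for 261273 probe sets, 9155 had several and 16901 none. Of 16941 symbols, 14546 were current in RefSeq, 2300 were updated and 95 kept. Single-gene probe sets were averaged per gene for the 16241 genes with at least 3. The values were used without further normalization.

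Genes were fitted with limma 3.58.1 in R 4.3.3 (package data.table, version 1.17.8) with 1 mean for each of 6 groups (12 residual degrees of freedom, 17.06 after moderation). Two-sided p-values got a Benjamini-Hochberg adjustment across all genes and were called at 0.05. SE values are those of the fit, pooled over groups, except for the partner ratios. For exon usage, diffSplice of limma was run on 175163 probe sets with a mean above the 30th percentile (5.17) in 11974 genes with at least 5 of them, with calls at an adjusted p under 0.05 where the difference reached 1 log2 unit. Partner ratios used exact permutation tests. The steps were tested on simulated data, whose noise was independent between arrays and held no spread shared by an array number.

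Samples with the same number deviated together. The correlation of their deviations from the group means was 0.79, 0.48 and 0.58 in HL60, 0.40, 0.64 and 0.65 in THP-1, and 0.45, 0.29 and 0.52 in U937. Each exceeds 0.1, the rule used for pairing, so a second fit held a block for each pair (6 residual degrees of freedom). Some arrays with different numbers also exceeded 0.1. They were HL60 PMA 2 with DMSO 3 (0.38) and PMA 3 with DMSO 2 (0.23), THP-1 PMA 2 with DMSO 1 (0.44) and U937 PMA 1 with DMSO 2 (0.33). All others with different numbers were under 0.1. The U937 value is above that of the U937 arrays numbered 2, so the rule does not by itself single out the pairs. Between lines, same-numbered DMSO arrays correlated between -0.36 and 0.77, and 7 of 9 pairs exceeded 0.1. Below it were HL60 array 2 with THP-1 array 2 (-0.27) and with U937 array 2 (-0.36). The numbers were therefore not taken to pair arrays of different lines. Whether a number stands for something shared between lines was not tested. The labels do not say what a number stands for.

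Named genes were the immunoproteasome and 11S genes with their partners, PSME3, PSME4, PSMF1, the PSMG chaperones, every member called for PMA or between lines, up to 3 uncalled members with the largest change per line, up to 4 called genes per pathway list and line, and the 3 genes most alike in group means to each immunoproteasome gene. Members called with the block alone, and others beyond this rule, were added after their values were seen. The members and the lists were chosen with earlier results of these data known. Alternatives were centring, quantile normalization, median polish, dim probe-set filters, the arrays compared alone, leaving out arrays or pairs, genes with at least 1 probe set, and shared probe sets.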

Additional observations from a re-analysis of the deposited data

Results flagged for a closer look

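PMA effects differed between lines for a few proteasome genes, by a limma test of the difference itself, in log2 units. The 3 differences share arrays. Without the replicate block this was PSMA8, for HL60 minus U937 (1.92 ± 0.24, limma adjusted p = 5.66e-05) and THP-1 minus U937 (1.75 ± 0.24, limma adjusted p = 0.000236).

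With the block alone, HL60 minus THP-1 differed for PSME2 (1.98 ± 0.34, limma adjusted p = 0.00126), PSME4 (1.52 ± 0.38, limma adjusted p = 0.0140) and PSMG1 (-1.03 ± 0.23, limma adjusted p = 0.00713). HL60 minus U937 differed for PSMB8 (0.87 ± 0.26, limma adjusted p = 0.0332), PSMD10 (1.04 ± 0.28, limma adjusted p = 0.0216), PSME2 (1.45 ± 0.34, limma adjusted p = 0.00975) and PSME4 (1.28 ± 0.38, limma adjusted p = 0.0333). THP-1 minus U937 differed for PSMG1 (0.87 ± 0.23, limma adjusted p = 0.0282), PSMG2 (0.79 ± 0.22, limma adjusted p = 0.0339) and PSMG3 (0.81 ± 0.23, limma adjusted p = 0.0376). Of these, PSMG1 for HL60 minus THP-1 and PSME2 for both of its differences were called in all 9 blocked alternatives, whereas each of the others lost its call in at least 3 of 9. The median effect of all genes differed by 0.23 for HL60 minus U937 and by 0.16 for THP-1 minus U937.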

How the results depend on the processing

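The replicate block moved the counts of called members most. With it they were 8 in HL60, 12 in THP-1 and 12 in U937, against 2, 2 and 7 without it, 3, 5 and 4 for the differences of PMA effects HL60 minus THP-1, HL60 minus U937 and THP-1 minus U937, against 0, 1 and 1. For the lines with DMSO, the array numbers were not taken as pairs. There, a block of the number gave 9 for HL60 against THP-1, 27 for HL60 against U937 and 20 for THP-1 against U937. Without it these were 3, 15 and 10. Without the block, centring gave 6 in HL60, 5 in THP-1, 1 for HL60 minus THP-1 and 9 for HL60 against U937. Quantile normalization gave 7, 6, 2 and 9 for the same. Without both U937 arrays numbered 2 the counts were 6 in HL60, 5 in THP-1, 3 in U937, 1 for HL60 minus THP-1 and 5 for HL60 against THP-1. The arrays compared alone gave 6 in HL60 and 2 for HL60 minus THP-1, and median polish gave 1 for HL60 minus THP-1 and 5 for HL60 against THP-1. The filter at the 30th percentile gave 1 for HL60 minus THP-1 and 0 for the differences from U937, because PSMA8 has too few probe sets above it. Leaving out 1 array gave 1 to 3 members in HL60, 1 to 3 in THP-1, 3 to 8 in U937, 0 to 1 for HL60 minus THP-1, 1 to 2 for HL60 minus U937 and for THP-1 minus U937, 2 to 6 for HL60 against THP-1, 7 to 19 for HL60 against U937 and 9 to 11 for THP-1 against U937. The arrays whose absence moved a count by more than 1.5 times were DMSO 1, PMA 2 and PMA 3 for HL60, DMSO 1 and 2 and PMA 1 and 2 for THP-1, DMSO 1 and 2 and PMA 2 for U937, THP-1 PMA 3 for HL60 minus THP-1, U937 PMA 3 for HL60 minus U937, U937 PMA 2 for THP-1 minus U937, THP-1 DMSO 3 for HL60 against THP-1, and HL60 DMSO 2 and 3 and U937 DMSO 1 and 2 for HL60 against U937. With the block, centring and quantile normalization gave 17 and 19 members in HL60, 13 of them lower in each. With the block, leaving out 1 pair gave 4 to 6 in HL60, 4 to 9 in THP-1 and 10 to 24 in U937, moved this far by pairs 1 and 2 in HL60 and THP-1 and by pair 3 in U937. Without U937 pair 2, 2 members were called higher and 9 lower in U937 with the block. For exon usage, the 50th percentile filter gave 2 probe sets in HL60, 1 in THP-1 and 1 in U937, against 1, 0 and 2, and the splicing index gave 3 in HL60 and 1 in THP-1. No result reversed its direction where it was called. For single genes, 706 comparisons with an alternative kept their side of the threshold, 25 gained a call and 31 lost one. Of the blocked calls of PMA effects and their differences, centring ended 1, PSMB8 for HL60 minus U937, and quantile normalization ended none. The alternatives that pair the block with another scaling or leave out a pair, and those on shared probe sets or a minimum of 1 probe set, were chosen after seeing the data. The signal of the dimmest genes (PSMA8, PSMAL) and the number of arrays limit what can be seen.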
